A study of Mus musculus with 58 samples.

Results

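The 86 genes described here encode enzymes and readers of histone and DNA modifications, out of 11603 rows of a table of ribosome-bound mRNA from mouse fat cells. They were taken by symbol: the numbered Kdm, Kmt, Hdac, Prmt, Setd, Kat and Brd genes, the sirtuins, the Dnmt, Tet, Ehmt, Suv3 and Suv4 genes, and Ezh1, Ezh2, Eed, Suz12, Dot1l, Ep300 and Crebbp. All 86 had values in every library and entered every test. Dnmt3b and Tet1, which the same rule would take, have no row among the values used and are not analysed here. By role they comprise 9 acetyltransferases, 11 zinc-dependent deacetylases, 7 sirtuins, 7 bromodomain proteins, 8 H3K4 methyltransferases, 10 methyltransferases or partners for H3K9, H3K27 and H4K20, 6 other lysine methyltransferase relatives, 7 arginine methyltransferases, 17 lysine demethylases and 4 DNA methylation enzymes. The H3K4 methyltransferase class counts Kmt2e as a family member, and enzyme activity was not measured for any gene.

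The 22 mRNA libraries came from C57BL/6J mice with the NuTRAP allele, which gives cells that express Cre a GFP tag on their ribosomes. Pulling down GFP (TRAP) then takes the mRNA bound to those ribosomes. The Cre was driven by Ucp1, which marks thermogenic fat cells, or by Adipoq, which marks adipocytes in general, and the labels do not say which line each library used. Warm beige libraries (n = 3) were made from inguinal white fat of mice that had a week at 4 °C followed by 4 weeks at 30 °C, and cold beige libraries (n = 4) from the same depot straight after the cold week. Warm brown (n = 5) and cold brown libraries (n = 5) came from interscapular brown fat after the same 2 treatments. Warm white libraries (n = 5) were from the inguinal fat of mice that had lived at 30 °C from birth. Age, sex and any shared animals are not given in the sources used here, and temperature cannot be told apart from the 4 weeks that passed between the cold and the warm sampling. Each library is called a biological replicate, and p-values measure the spread between these libraries.

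Histones are marked by acetyl and methyl groups. Acetyltransferases and deacetylases add and remove acetyl groups, which go with active enhancers and promoters and are read by bromodomains. Lysine methyltransferases and demethylases set marks whose meaning depends on the site: methylated H3K4 lies at enhancers and promoters, while methylated H3K9 and H3K27 lie in silent chromatin. In fat, Ehmt1, Kdm1a, Kdm3a, Hdac3 and Ep300 are among the enzymes known in mice for roles in brown and beige adipocytes. Several members act outside chromatin: Sirt3, Sirt4 and Sirt5 are mitochondrial, Sirt2 is mainly cytosolic, and Setd3 methylates actin.

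The values are log2 CPM, and since CPM is not scaled to gene length, levels are compared only between groups for the same gene. Sequencing depth is unknown. The thermogenic marker list (6 genes, Ucp1 among them) summed to between 161 and 305 CPM for warm beige, 5220 and 6150 for cold beige, 1580 and 2010 for warm brown, 7210 and 9630 for cold brown, and 26.8 and 50.5 for warm white, highest in the 2 cold groups. Other cell types' markers moved as well. The 12 fibroblast and preadipocyte markers summed to between 2960 and 5790 CPM for warm beige, 888 and 1240 for cold beige, 162 and 297 for warm brown, 47.7 and 111 for cold brown, and 4100 and 5280 for warm white, and none was at the floor throughout a group. The 12 endothelial markers summed to between 621 and 964 CPM for warm beige, 197 and 429 for cold beige, 150 and 261 for warm brown, 66.8 and 233 for cold brown, and 62.6 and 94.2 for warm white. The 9 skeletal muscle markers measured (of 12) summed to between 24.3 and 231 CPM for warm beige, 2.68 and 19.4 for cold beige, 0.338 and 1.16 for warm brown, 0.994 and 2.26 for cold brown, and 5.5 and 408 for warm white, with 2 at the floor in every cold brown library. All 9 were called higher in warm beige than in cold beige and than in warm brown. The 7 macrophage markers measured (of 12) summed to between 99.2 and 149 CPM for warm beige, 53 and 90.5 for cold beige, 9.86 and 16.9 for warm brown, 6.22 and 11.4 for cold brown, and 42.5 and 87.6 for warm white, and all 7 were called higher in cold beige than in cold brown. The share of the ribosomal RNA precursor row Rn45s of the summed CPM ran between 4.32 and 5.72% for warm beige, 0.436 and 1.15% for cold beige, 0.11 and 0.597% for warm brown, 0.0575 and 0.0994% for cold brown, and 2.06 and 2.41% for warm white. The part of these in the results was not tested. In such bulk libraries, fewer cells of a type and less RNA per cell cannot be told apart.

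Together the 86 genes took between 0.719 and 0.856% of the summed CPM of warm beige libraries, against 0.544 and 0.609% for cold beige, and between 0.553 and 0.602% for warm brown, against 0.449 and 0.496% for cold brown. For warm white the share was between 0.723 and 0.767%. Warm libraries thus lay above cold libraries of the same depot without overlap. Of the 86 genes, 24 had their highest group mean in warm beige, 11 in cold beige, 10 in warm brown, 15 in cold brown and 26 in warm white, and 43 had their lowest mean in cold brown. The heat map by gene and library shows this, and also shows that most classes held genes that went against their majority.

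**Figure D1:**
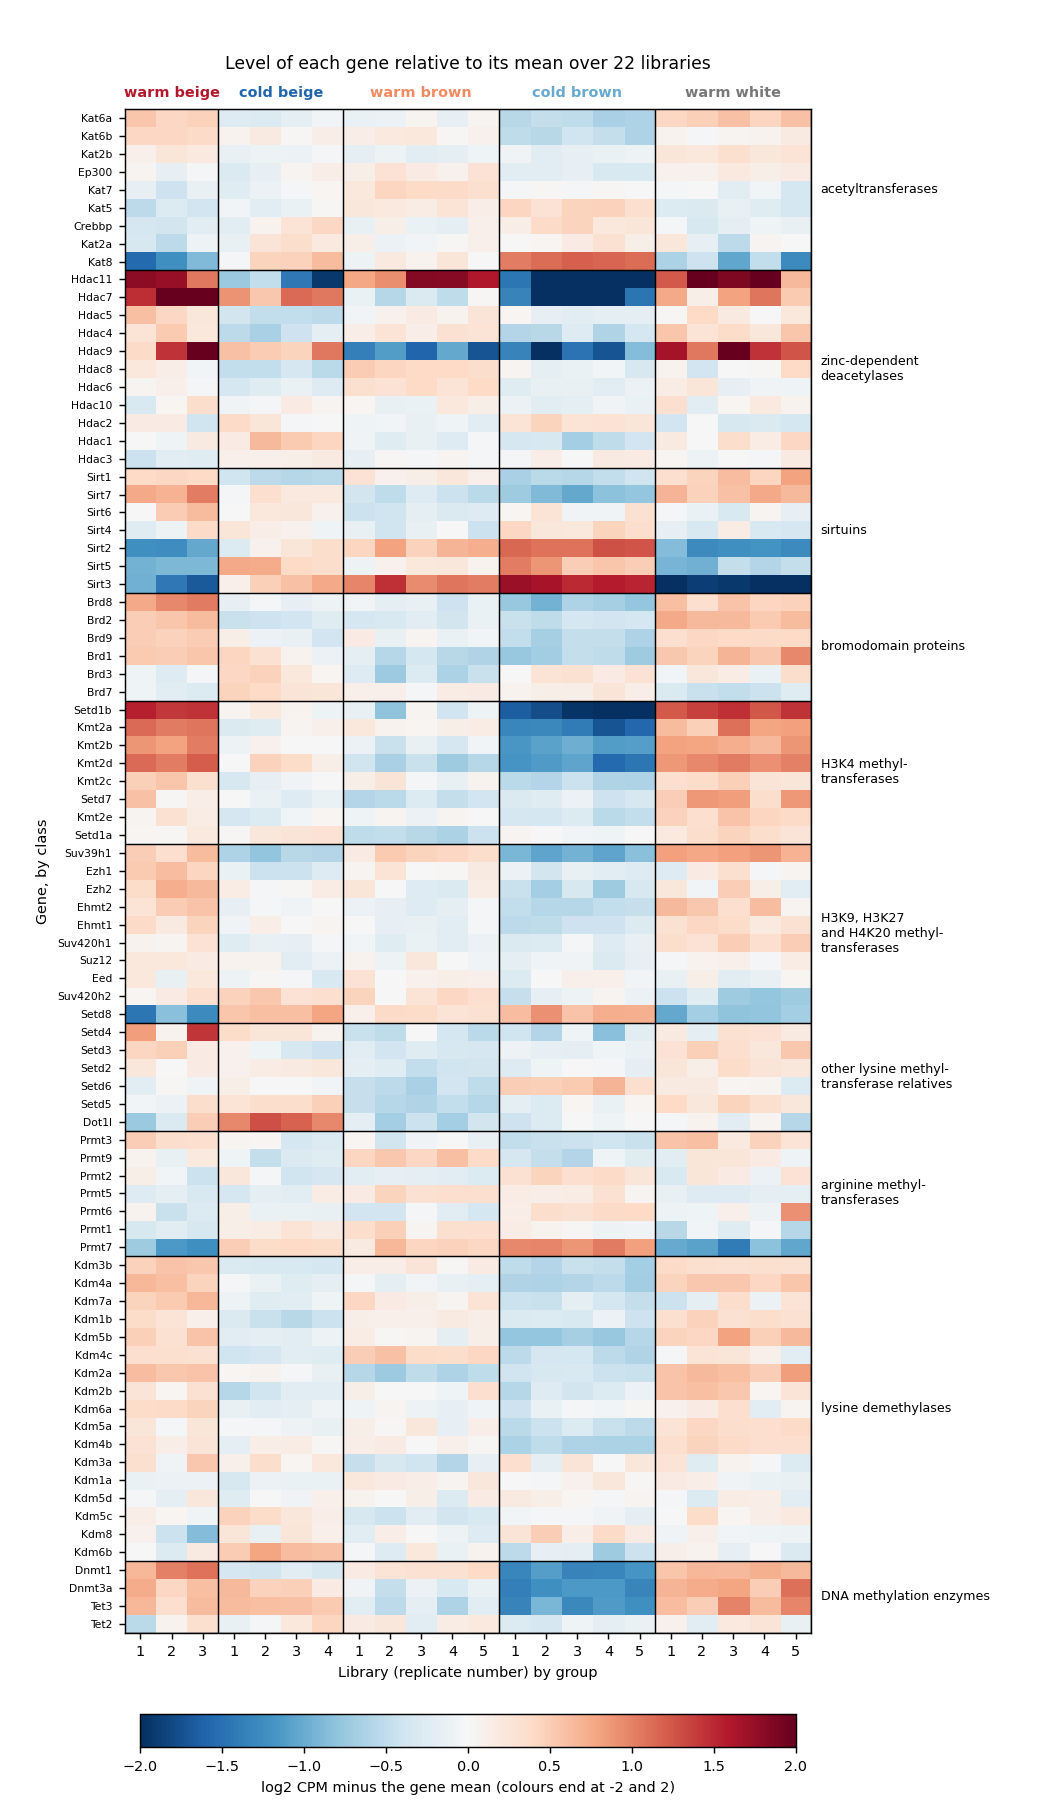
Level of 85 of the 86 genes (rows, by class) in each of the 22 libraries (columns, by group), as log2 CPM minus the gene's mean over all libraries, with red above and blue below that mean. The cold brown columns are the bluest (43 of 86 genes have their lowest group mean there), and Sirt3, Sirt5, Setd8, Prmt7 and Kat8 run the other way.

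Warming of beige adipocytes was followed by higher levels of most of these genes. Against cold beige, 46 of the 86 were called higher and 19 lower in warm beige at an adjusted p under 0.05 (limma, Benjamini-Hochberg over all rows), where 36% of all rows were called higher and 36.9% lower (72.9% called). The median log2 fold change was 0.28, against 0.03 over all rows. Most changes were modest: 14 members were called and at least 2-fold different, where the background was 33.5% of all rows. Values of warm beige and cold beige libraries did not overlap for 56 members, or 65.1%, where 66.4% of all rows did not. The split depended on the scaling, with 49 higher and 11 lower when every library was brought to a common total, and 51 and 10 with totals taken without the 20 most abundant genes. These scalings moved all rows as well: 57% and 60.8% of all called rows were then higher, against 49.4% in the main fit. The values also show 2 batches of libraries, whose nature is not given in the sources used here. Within the smaller (1 warm beige library) the members' median was 0.34, against 0.01 over all rows. Within the larger the counts were 39 and 19.

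Brown adipocytes gave a similar split. Warm brown had 46 members called higher and 22 lower than cold brown, where 41.2% of all rows were called higher and 30.1% lower (71.3% called). The median was 0.30, against 0.13 over all rows. The groups did not overlap for 61 members (70.9%), where the background was 63%, and 10 members were called and at least 2-fold different, where it was 24.7%. The split moved to 39 and 23 with quantile normalization, 40 and 28 with median-of-ratios scaling, 53 and 14 with a common total, and 51 and 15 without the 20 most abundant genes. All rows moved as well: the share of called rows that were higher was 49.8, 50, 67.6 and 66.2% in that order, against 57.7% in the main fit. The members' split was 31 and 7 within the smaller batch and 42 and 19 within the larger.

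Set side by side, 38 members were called higher on warming in both cell types, where 26.8% of all rows were. Calls of lower in both were made for 12, where the background was 23.4%. The 12 were Brd3, Crebbp, Kat5, Kat8, Kdm5c, Kdm8, Prmt7, Setd5, Setd8, Sirt2, Sirt3 and Sirt5. Opposite calls were made for 4: Hdac1, Kdm6b and Prmt1 were lower in warm beige and higher in warm brown, each than its cold group, and Kdm2a was the reverse. Over all rows, 3.95% were lower in beige and higher in brown, and 1.69% were the reverse. No call was made in either for 7: Eed, Hdac9, Hdac10, Kdm1a, Kdm5d, Prmt5 and Tet2, where 11.7% of all rows had none. The 2 warming effects share no libraries. Tested as a difference (beige warming minus brown warming), 16 members were called positive and 23 negative, where 14.8% of all rows were called positive and 32.4% negative (47.2% called), and 3 members differed by at least 2-fold (Sirt3, Setd8 and Kdm6b), where 17.2% of all rows did. This split turned to 29 positive and 17 negative with quantile normalization, which moved the median of all rows by 0.21, and to 26 and 16 with median-of-ratios scaling (by 0.15). It was 2 and 4 within the smaller batch and 13 and 22 within the larger.

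**Figure D2:**
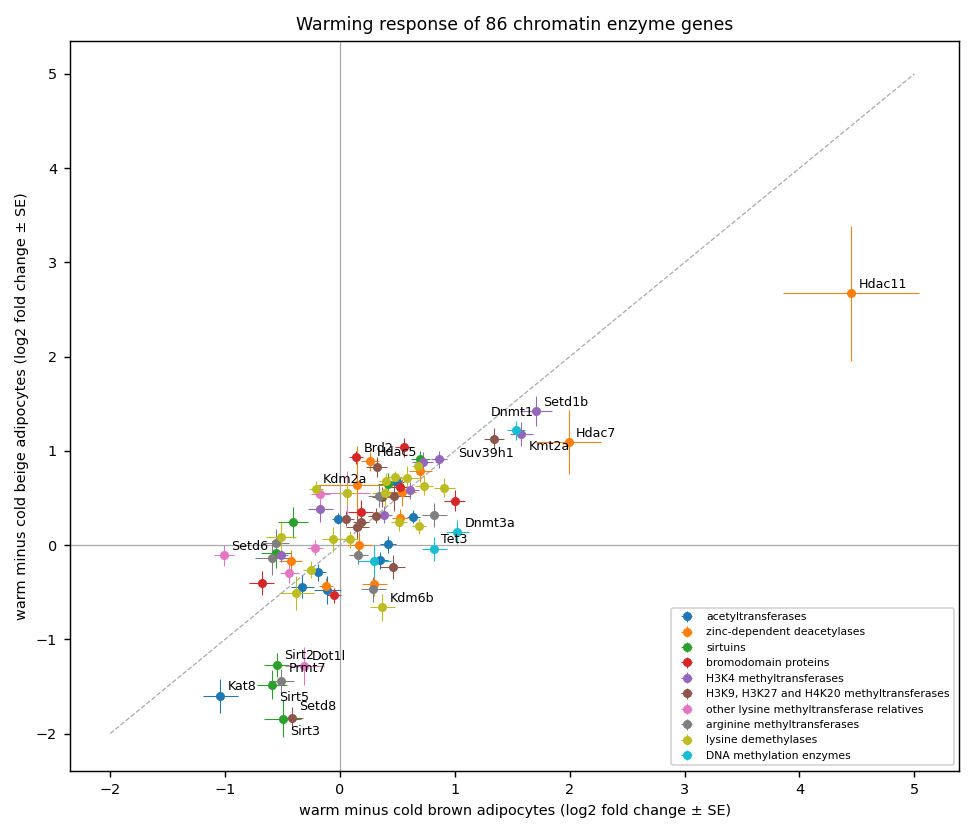
Log2 fold change on warming in beige adipocytes (y axis) against that in brown adipocytes (x axis) for the 86 genes, coloured by class, with bars of 1 SE and a dashed line where the 2 would be equal. Sirt3, Setd8, Sirt5 and Prmt7 fell further in beige, Dnmt3a and Tet3 lie near 0 on the beige axis and above 0.8 on the brown axis, and Hdac11 has the largest change and the widest bars on both.

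Most H3K4 methyltransferases rose on warming. In beige adipocytes 7 of the 8 rose on warming and none fell (median 0.73), and in brown adipocytes 6 rose and Setd1a fell (median 0.66). Setd1b, the catalytic subunit of a COMPASS complex that methylates H3K4, had 6.86, 6.73 and 6.76 log2 CPM in warm beige libraries, against 5.36, 5.50, 5.38 and 5.21 in cold beige. In brown fat it had 5.16, 4.51, 5.36, 4.91 and 5.21 in warm libraries, against 3.67, 3.54, 3.35, 2.98 and 3.05 in cold ones. Every warm library lay above every cold library of its depot, and the log2 fold changes were 1.42 (SE 0.16, adjusted p = 6.72e-08) in beige and 1.71 (SE 0.14, adjusted p = 1.8e-10) in brown. Warm white libraries held 6.54, 6.68, 6.78, 6.56 and 6.76, overlapping the warm beige libraries.

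Kmt2a (MLL1), a trithorax methyltransferase needed for Hox gene expression, had 7.01, 6.92 and 6.94 log2 CPM in warm beige, against 5.59, 5.63, 5.93 and 5.97 in cold beige. Brown libraries had 6.09, 5.95, 5.92, 5.99 and 6.03 when warm, against 4.57, 4.59, 4.47, 4.14 and 4.30 when cold. Neither pair of groups overlapped, with log2 fold changes of 1.18 (SE 0.13, adjusted p = 2.04e-08) in beige and 1.58 (SE 0.10, adjusted p = 8.24e-12) in brown. Warm white libraries had 6.51, 6.35, 6.98, 6.66 and 6.69. Its promoter window is printed as that of a gene that rose in both cell types (RefSeq, GRCm38.p6, chr9:44881240-44881539, minus strand, from 250 bases before to 50 after the start). It holds none of the motifs searched on either strand, so no letters are in capitals.
Kmt2a: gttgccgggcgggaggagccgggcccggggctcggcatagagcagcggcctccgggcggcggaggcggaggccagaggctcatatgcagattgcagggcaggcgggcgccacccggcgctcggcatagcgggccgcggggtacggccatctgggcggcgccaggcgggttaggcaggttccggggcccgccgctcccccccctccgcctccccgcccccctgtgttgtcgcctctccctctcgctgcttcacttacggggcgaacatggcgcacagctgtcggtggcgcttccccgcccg

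Kmt2d (MLL4), which places H3K4me1 at enhancers and is required for adipogenesis in mice, had 8.68, 8.57 and 8.75 log2 CPM in warm beige, against 7.56, 8.00, 7.92 and 7.67 in cold beige. It had 7.15, 6.89, 7.10, 6.84 and 6.97 in warm brown, against 6.37, 6.42, 6.49, 5.99 and 6.10 in cold brown, and 8.42, 8.50, 8.59, 8.46 and 8.56 in warm white. All brown libraries lay below all inguinal libraries. The warming effects were 0.88 (SE 0.11, adjusted p = 4.46e-07) in beige and 0.72 (SE 0.09, adjusted p = 6.1e-07) in brown, and their difference was 0.16, with an interval of -0.15 to 0.48. Its paralog Kmt2c changed by 0.58 (SE 0.09, adjusted p = 5.59e-06) in beige and 0.61 (SE 0.08, adjusted p = 2.07e-07) in brown, and Kmt2b by 0.91 (SE 0.09, adjusted p = 3.08e-09) and 0.86 (SE 0.07, adjusted p = 3.9e-10). Setd7, which methylates H3K4 and many non-histone proteins, rose in beige (0.38, SE 0.13, adjusted p = 0.0126), while in brown the change was -0.17 (interval -0.40 to 0.05), a difference of 0.55 (SE 0.17, adjusted p = 0.00984) that was not called without warm beige replicate 1 (0.39, adjusted p = 0.0535) or within either batch (adjusted p = 0.165 and 0.0617).

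Of the 10 methyltransferases and partners for H3K9, H3K27 and H4K20, 7 rose on warming in beige and 7 in brown, 6 of them in both, Setd8 fell in both, and the medians were 0.29 in beige and 0.32 in brown. Suv39h1, which trimethylates H3K9 in heterochromatin, had 3.96, 3.81 and 4.11 log2 CPM in warm beige, against 2.85, 2.68, 2.92 and 2.88 in cold beige. It had 3.64, 3.99, 3.92, 3.88 and 3.83 in warm brown, against 2.56, 2.42, 2.53, 2.42 and 2.63 in cold brown. The groups were apart in both depots, at 1.13 (SE 0.11, adjusted p = 6.54e-09) in beige and 1.34 (SE 0.09, adjusted p = 2.02e-11) in brown. Ehmt1 and Ehmt2 (GLP and G9a), the paired enzymes for H3K9 dimethylation of which Ehmt1 partners Prdm16 in mouse brown fat, rose by small amounts: Ehmt1 by 0.31 (SE 0.08, adjusted p = 0.00184) in beige and 0.31 (SE 0.07, adjusted p = 0.000315) in brown, and Ehmt2 by 0.51 (SE 0.11, adjusted p = 0.000192) and 0.37 (SE 0.09, adjusted p = 0.000693).

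Among the Polycomb repressive complex 2 genes, Ezh1, the H3K27 methyltransferase typical of resting cells, had 7.29, 7.39 and 7.21 log2 CPM in warm beige, against 6.64, 6.35, 6.35 and 6.52 in cold beige, and rose by 0.83 (SE 0.11, adjusted p = 4.05e-07). In brown it rose by 0.32 (SE 0.09, adjusted p = 0.00277), and the 2 effects differed by 0.51 (SE 0.14, adjusted p = 0.00466). Ezh2, its counterpart in dividing cells, rose by 0.52 (SE 0.16, adjusted p = 0.00759) in beige and 0.47 (SE 0.14, adjusted p = 0.00369) in brown, and the brown call was lost with quantile normalization (0.14, adjusted p = 0.385). Suz12, a scaffold of the complex, rose by 0.25 and 0.18 (adjusted p = 0.0127 and 0.0269), calls lost in 4 and 8 of 38 other settings (in brown, 0.06 with median-of-ratios scaling, adjusted p = 0.422, and 0.13 without warm brown replicate 3, adjusted p = 0.103; in beige, 0.19 without cold beige replicate 3, adjusted p = 0.0531). For Eed, which binds methylated H3K27, the changes were 0.19 in beige (interval -0.06 to 0.44) and 0.15 in brown (interval -0.06 to 0.35).

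Setd8, the enzyme that monomethylates H4K20, moved against its class. It had 4.88, 5.48 and 5.05 log2 CPM in warm beige, against 6.88, 6.93, 6.93 and 7.11 in cold beige. It had 6.42, 6.71, 6.69, 6.60 and 6.63 in warm brown, against 6.94, 7.23, 6.90, 7.05 and 7.04 in cold brown, and 5.30, 5.64, 5.52, 5.54 and 5.64 in warm white. Every cold beige library was above every warm beige and warm white one. The log2 fold change was -1.83 (SE 0.11, adjusted p = 3.02e-12) in beige and -0.42 (SE 0.10, adjusted p = 0.000437) in brown, a difference of -1.40 (SE 0.15, adjusted p = 9.01e-08). Suv420h1 and Suv420h2, which take H4K20 to higher methylation, changed by 0.28 (SE 0.08, adjusted p = 0.00342) and -0.23 (SE 0.13, adjusted p = 0.138) in beige, and by 0.05 (SE 0.07, adjusted p = 0.54) and 0.46 (SE 0.11, adjusted p = 0.000956) in brown.

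The 9 acetyltransferases had no common direction. On warming 3 rose and 4 fell in beige, with a median of -0.16 that turned to 0.07 when totals left out the 20 most abundant genes (4 higher and 1 lower). In brown 4 rose and 3 fell (4 and 1 under that scaling). Kat8 (MOF), the H4K16 acetyltransferase, had 2.60, 2.94 and 3.27 log2 CPM in warm beige, against 4.14, 4.60, 4.62 and 4.79 in cold beige. It had 4.06, 4.36, 4.23, 4.40 and 4.17 in warm brown, against 5.18, 5.28, 5.35, 5.32 and 5.27 in cold brown. It was lower in every warm library than in any cold library of the same depot, with log2 fold changes of -1.60 (SE 0.18, adjusted p = 6.37e-08) in beige and -1.04 (SE 0.15, adjusted p = 2.54e-06) in brown. Kat6a (MOZ), an H3 acetyltransferase, rose in both, by 0.67 (SE 0.07, adjusted p = 2.99e-08) and 0.50 (SE 0.06, adjusted p = 1.77e-07).

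Ep300 and Crebbp are paralogs that place H3K27ac at enhancers. Ep300 had 6.59, 6.38 and 6.50 log2 CPM in warm beige, against 6.25, 6.38, 6.60 and 6.67 in cold beige, and 6.65, 6.83, 6.70, 6.62 and 6.83 in warm brown, against 6.33, 6.32, 6.38, 6.24 and 6.24 in cold brown. Its groups overlapped in beige, where the change was 0.01 (interval -0.17 to 0.20), and it rose in brown by 0.42 (SE 0.07, adjusted p = 1.54e-05). Crebbp was lower on warming in both, at -0.44 (SE 0.12, adjusted p = 0.00242) in beige and -0.33 (SE 0.10, adjusted p = 0.00449) in brown, and both calls were lost with a common total (adjusted p = 0.0827 in beige and 0.177 in brown). Kat2b (PCAF), an H3K9 acetyltransferase, rose in beige (0.28, SE 0.06, adjusted p = 0.000192), its change in brown was -0.02 (interval -0.12 to 0.08), and the 2 effects differed by 0.30 (SE 0.07, adjusted p = 0.00227).

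Bromodomain readers rose for the most part, with 5 higher and 2 lower in beige and 4 higher and 1 lower in brown. Brd2, which binds acetylated histones, had 8.15, 8.21 and 8.29 log2 CPM in warm beige, against 7.21, 7.25, 7.27 and 7.41 in cold beige, and 7.32, 7.35, 7.45, 7.29 and 7.52 in warm brown, against 7.21, 7.15, 7.30, 7.28 and 7.30 in cold brown. Its rise was 0.93 (SE 0.07, adjusted p = 8.37e-11) in beige and 0.14 (SE 0.06, adjusted p = 0.0411) in brown, a difference of 0.79 (SE 0.09, adjusted p = 3.4e-07). The brown value is near the median of all rows (0.13), which median-of-ratios scaling moved by -0.11, and that call was not followed through other settings. Brd3 fell in both, at -0.40 (SE 0.13, adjusted p = 0.00752) in beige and -0.68 (SE 0.11, adjusted p = 5.62e-06) in brown. Brd8, a subunit of the Tip60 acetyltransferase complex, rose by 1.04 (SE 0.10, adjusted p = 1.98e-09) in beige and 0.56 (SE 0.08, adjusted p = 1.48e-06) in brown.

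The zinc-dependent deacetylases held the largest change of all 86 genes in both cell types, that of Hdac11. On warming 6 of 11 rose and 2 fell in beige (median 0.56), and 7 rose and 1 fell in brown (median 0.30). Hdac11, the class IV enzyme that removes long fatty acyl groups and whose loss raises thermogenic capacity in mouse fat, had 2.34, 2.29 and 1.60 log2 CPM in warm beige, against -0.19, 0.06, -0.88 and -1.38 in cold beige. It had 1.32, 1.48, 2.38, 2.36 and 2.15 in warm brown, against -0.90, -1.48, -2.90, -5.47 and -1.82 in cold brown, with cold brown replicate 4 at the floor of the table (below -5). Warm white libraries had 1.78, 2.94, 2.42, 2.73 and 1.19. Warm libraries were above cold ones without overlap in both depots, by 2.67 (SE 0.72, adjusted p = 0.00208) in beige and 4.45 (SE 0.59, adjusted p = 6.54e-07) in brown. These sizes rest on low cold values (SD 0.66 in cold beige and 1.81 in cold brown): with 1 CPM added before the log they were 1.63 and 1.96, and without cold brown replicate 4 the brown one was 3.71. The difference between beige and brown warming was -1.78 (interval -3.74 to 0.18).

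The Hdac11 promoter window is shown as that of the member with the largest change (RefSeq, GRCm38.p6, chr6:91156565-91156864, plus strand). Capitals mark its CCAAT box, which reads on the minus strand. A CCAAT on either strand is in 37.6% of the 101 windows of the 72 members with a promoter in the RefSeq table, and in 37.4% of all 32851 windows, each 300 bases long. No window of a member holds TCAAGGTCA, an extended site for nuclear receptors (0.423% of all windows do). The cAMP response element TGACGTCA is in 0.99% of the members' windows and 1.79% of all, and the E-box CACGTG in 9.9% and 7.15%. The site of the factor NRF1 was searched as well. It is in 3.96% of the members' windows (4 of 101, from Brd2, Dnmt1 and Sirt6) and 0.971% of all. Whether these shares differ was not tested. Both strands were read, and none of these motifs contains another. A match is a description of the letters only.
Hdac11: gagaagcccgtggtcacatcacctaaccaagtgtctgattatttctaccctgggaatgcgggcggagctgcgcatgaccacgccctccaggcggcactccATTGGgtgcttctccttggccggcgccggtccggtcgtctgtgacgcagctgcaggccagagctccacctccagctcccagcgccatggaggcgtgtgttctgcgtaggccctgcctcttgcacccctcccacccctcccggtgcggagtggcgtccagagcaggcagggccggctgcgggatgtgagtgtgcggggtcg

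Of the class IIa deacetylases, which are carried to DNA by factors such as MEF2, Hdac4, Hdac5 and Hdac7 rose in both cell types. Hdac7 had 4.91, 5.60 and 5.79 log2 CPM in warm beige, against 4.34, 3.97, 4.57 and 4.49 in cold beige, and 3.31, 2.86, 3.15, 2.92 and 3.46 in warm brown, against 2.10, 0.38, 0.83, 0.47 and 1.97 in cold brown. All inguinal libraries from beige groups lay above all brown ones. It rose by 1.09 (SE 0.34, adjusted p = 0.00681) in beige and 1.99 (SE 0.28, adjusted p = 1.62e-06) in brown. Hdac7 is abundant in endothelium, and the summed endothelial markers given above were also higher in warm beige and warm brown than in their cold groups, with 9 and 4 of the 12 called higher, and their part in this was not tested. Cold brown replicates 1 and 5 were the highest of their group in both, and without them the brown change was 2.58 (adjusted p = 2.01e-09). Hdac5 rose by 0.89 (SE 0.10, adjusted p = 3.14e-08) in beige and 0.26 (SE 0.08, adjusted p = 0.00725) in brown, a difference of 0.63 (SE 0.13, adjusted p = 0.000274), and Hdac4 by 0.79 (SE 0.12, adjusted p = 2.51e-06) and 0.70 (SE 0.10, adjusted p = 9.23e-07). Hdac9, which restrains mouse preadipocyte differentiation, gave values that depended on the setting: its change was 0.64 in beige (interval -0.23 to 1.51), but 1.08 (adjusted p = 0.0284) without warm beige replicate 1, and 0.15 in brown (interval -0.57 to 0.87), but -0.9 (adjusted p = 0.0263) with quantile normalization.

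Class I enzymes changed less. Hdac3, the catalytic subunit of the NCoR and SMRT corepressors, had 5.86, 6.06 and 6.05 log2 CPM in warm beige, against 6.40, 6.39, 6.41 and 6.47 in cold beige, and 6.12, 6.32, 6.26, 6.35 and 6.25 in warm brown, against 6.27, 6.43, 6.29, 6.47 and 6.46 in cold brown. Its log2 fold change was -0.43 (SE 0.08, adjusted p = 3.6e-05) in beige, its change in brown was -0.12 (interval -0.26 to 0.01), and the difference was -0.30 (SE 0.10, adjusted p = 0.0161). That difference lost its call in 6 of 38 other settings, among them median-of-ratios scaling (-0.15, adjusted p = 0.245), both batches and without warm beige replicate 1 (-0.24, adjusted p = 0.0629). Hdac1 was called lower in warm beige (-0.41, SE 0.13, adjusted p = 0.00751) and higher in warm brown (0.30, SE 0.11, adjusted p = 0.0179), but the beige call was lost with a common total (-0.26, adjusted p = 0.105) and the brown value became 0 with quantile normalization (adjusted p = 0.981). Its difference between beige and brown warming was -0.71 (SE 0.17, adjusted p = 0.00153).

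The sirtuins, NAD-dependent deacylases, did not move together. On warming the nuclear or nucleolar Sirt1 and Sirt7 rose in both cell types, while cytosolic Sirt2 and mitochondrial Sirt3 and Sirt5 fell in both. Sirt4, also mitochondrial, fell in brown (-0.56, adjusted p = 0.000605) and was not called in beige (means of 3.22 in warm and 3.30 in cold beige). Sirt3, the main mitochondrial deacetylase, had 4.64, 4.16 and 3.91 log2 CPM in warm beige, against 5.70, 6.08, 6.18 and 6.35 in cold beige. It had 6.57, 7.06, 6.54, 6.66 and 6.62 in warm brown, against 7.33, 7.25, 7.09, 7.17 and 7.12 in cold brown, and 3.46, 3.72, 3.66, 3.03 and 2.82 in warm white. Cold beige and cold brown were each above their warm group, and the white libraries were the lowest of all. The log2 fold change was -1.84 (SE 0.20, adjusted p = 1.86e-08) in beige and -0.50 (SE 0.16, adjusted p = 0.00837) in brown, the brown one lost with a common total (-0.35, adjusted p = 0.0558), and the difference was -1.34 (SE 0.25, adjusted p = 0.000153). That difference was called in every setting tried. Warm brown replicate 2 (7.06) stood far above the other 4 warm brown libraries.

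Sirt5, which removes succinyl and malonyl groups from mitochondrial proteins, had 3.10, 3.14 and 3.14 log2 CPM in warm beige, against 4.80, 4.78, 4.44 and 4.39 in cold beige. It had 3.94, 4.13, 4.26, 4.27 and 4.11 in warm brown, against 5.06, 4.93, 4.54, 4.60 and 4.53 in cold brown, and 3.11, 3.08, 3.57, 3.45 and 3.56 in warm white. Warm beige overlapped warm white and lay below cold beige. Its log2 fold change was -1.48 (SE 0.15, adjusted p = 1.33e-08) in beige and -0.59 (SE 0.13, adjusted p = 0.00027) in brown, a difference of -0.89 (SE 0.20, adjusted p = 0.000857). Its promoter window is shown as that of a member that fell in both (RefSeq, GRCm38.p6, chr13:43365285-43365584, plus strand), with the CCAAT box in capitals.
Sirt5: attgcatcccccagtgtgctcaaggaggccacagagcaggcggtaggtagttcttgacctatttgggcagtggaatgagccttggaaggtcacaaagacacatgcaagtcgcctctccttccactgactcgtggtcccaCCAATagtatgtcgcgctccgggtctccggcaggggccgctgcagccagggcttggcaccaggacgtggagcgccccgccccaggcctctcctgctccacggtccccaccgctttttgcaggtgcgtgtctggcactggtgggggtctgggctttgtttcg

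Sirt1, which deacetylates histones and the coactivator PGC-1α, had 5.74, 5.76 and 5.74 log2 CPM in warm beige, against 4.95, 4.82, 4.78 and 4.81 in cold beige, and 5.64, 5.43, 5.46, 5.57 and 5.45 in warm brown, against 4.70, 4.80, 4.78, 4.85 and 4.94 in cold brown. The warm libraries were higher in both, by 0.91 (SE 0.09, adjusted p = 1.12e-08) in beige and 0.70 (SE 0.08, adjusted p = 4.1e-08) in brown. Sirt2, a tubulin deacetylase, fell in both, with log2 fold changes of -1.27 (SE 0.13, adjusted p = 8.02e-09) in beige and -0.55 (SE 0.11, adjusted p = 8.28e-05) in brown. Sirt6, a nuclear H3K9 deacetylase, changed by 0.24 in beige (interval -0.09 to 0.57), fell in brown (-0.41, SE 0.13, adjusted p = 0.00796), and differed between them by 0.65 (SE 0.20, adjusted p = 0.0122). The sirtuin medians were -0.08 in beige, where a common total turned it to 0.07, and -0.50 in brown.

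Arginine methyltransferases split evenly, with 2 higher and 2 lower in beige and 3 higher and 3 lower in brown. Prmt7, which monomethylates arginine, had 4.49, 4.05 and 3.97 log2 CPM in warm beige, against 5.69, 5.57, 5.60 and 5.57 in cold beige. It had 5.38, 5.87, 5.63, 5.66 and 5.61 in warm brown, against 6.17, 6.18, 6.08, 6.24 and 6.03 in cold brown, and 4.20, 4.13, 3.80, 4.39 and 4.17 in warm white. Cold libraries of each depot lay above its warm ones, with log2 fold changes of -1.44 (SE 0.13, adjusted p = 9.78e-10) in beige and -0.51 (SE 0.11, adjusted p = 0.000177) in brown, a difference of -0.93 (SE 0.17, adjusted p = 7.86e-05). Prmt1, the main enzyme for asymmetric dimethylarginine, was lower in warm beige (-0.47, SE 0.13, adjusted p = 0.00231) and higher in warm brown (0.29, SE 0.11, adjusted p = 0.0168), and the first call was lost without the 20 most abundant genes (adjusted p = 0.0878) and the second with quantile normalization (adjusted p = 0.336). Prmt5, the main enzyme for symmetric dimethylarginine, changed by -0.11 in beige (interval -0.31 to 0.09) and 0.16 in brown (interval 0.00 to 0.32).

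Of the 6 other lysine methyltransferase relatives, 2 rose and 2 fell in beige, and none rose and 3 fell in brown. Dot1l, the H3K79 methyltransferase, had 5.60, 6.05 and 6.84 log2 CPM in warm beige, against 7.31, 7.63, 7.52 and 7.30 in cold beige, and 6.17, 5.66, 5.91, 5.67 and 5.98 in warm brown, against 5.94, 6.07, 6.35, 6.26 and 6.34 in cold brown. It fell in beige (-1.28, SE 0.20, adjusted p = 7.11e-06), its change in brown was -0.31 (interval -0.67 to 0.04), and the difference was -0.96 (SE 0.26, adjusted p = 0.00452). Within the smaller batch, which holds 1 warm beige library, the beige change was -0.46 and the difference -0.37. Setd6, which methylates the NF-κB subunit RelA, fell in brown (-1.01, SE 0.09, adjusted p = 2.31e-09) and changed by -0.11 in beige (interval -0.35 to 0.12). Setd3, the actin histidine methyltransferase, rose in beige (0.54, SE 0.10, adjusted p = 6.14e-05) and changed by -0.17 in brown (interval -0.34 to 0.01).

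The 17 lysine demethylases mostly rose, with 11 higher and 3 lower in beige (median 0.55) and 10 higher and 4 lower in brown (median 0.39), and no scaling turned either majority. Kdm6b (JMJD3), which removes methyl groups from H3K27, had 5.63, 5.36 and 5.81 log2 CPM in warm beige, against 6.14, 6.43, 6.26 and 6.23 in cold beige. It had 5.61, 5.38, 5.84, 5.50 and 5.71 in warm brown, against 5.12, 5.48, 5.45, 4.93 and 5.20 in cold brown, and 5.76, 5.70, 5.48, 5.64 and 5.34 in warm white. Every cold beige library was above all the others, and the brown groups overlapped. The log2 fold change was -0.66 (SE 0.14, adjusted p = 0.000159) in beige and 0.37 (SE 0.11, adjusted p = 0.00554) in brown, where the call was lost with median-of-ratios scaling (0.26, adjusted p = 0.0503), and the difference was -1.04 (SE 0.18, adjusted p = 4.8e-05). Within the smaller batch, with 1 warm beige library, the beige change was -0.37. Kdm6a (UTX), its X-linked paralog, rose in beige by 0.55 (SE 0.11, adjusted p = 0.000102), and its change in brown was 0.06 (interval -0.13 to 0.24).

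Kdm2a, an H3K36 demethylase that binds CpG islands, had 7.91, 7.84 and 7.87 log2 CPM in warm beige, against 7.33, 7.36, 7.27 and 7.15 in cold beige, and 6.72, 6.57, 6.79, 6.68 and 6.78 in warm brown, against 6.90, 6.97, 6.99, 6.87 and 6.85 in cold brown. It was apart in both, in opposite directions, at 0.60 (SE 0.08, adjusted p = 3.04e-07) in beige and -0.21 (SE 0.06, adjusted p = 0.00526) in brown, a difference of 0.80 (SE 0.10, adjusted p = 6.67e-07). The difference was called in all 38 other settings. The brown change alone was not followed through them, and a common total moved the brown median of all rows by 0.15. Kdm3a (JMJD1A), an H3K9 demethylase that acts in adrenergic signalling in mouse brown fat, had 5.30, 4.90 and 5.51 in warm beige, against 5.07, 5.33, 5.01 and 5.19 in cold beige, and 4.52, 4.66, 4.58, 4.39 and 4.81 in warm brown, against 5.31, 4.78, 5.24, 4.99 and 5.20 in cold brown. Its beige groups overlapped, with a change of 0.09 (interval -0.23 to 0.41), and it fell in brown (-0.51, SE 0.13, adjusted p = 0.000955). For Kdm1a (LSD1), an H3K4 demethylase and partner of Prdm16, the changes were 0.06 in beige (interval -0.13 to 0.24) and 0.09 in brown (interval -0.06 to 0.25). The largest rises were those of Kdm3b in beige (0.84, SE 0.07, adjusted p = 1.1e-10) and Kdm4c in brown (0.91, SE 0.09, adjusted p = 3.35e-09).

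Of the 4 DNA methylation enzymes, 1 rose in beige and 3 in brown, and none fell. Dnmt1, which copies methylation after replication, had 5.19, 5.54 and 5.61 log2 CPM in warm beige, against 4.20, 4.16, 4.32 and 4.21 in cold beige, and 4.70, 4.80, 4.84, 4.83 and 4.92 in warm brown, against 3.23, 3.43, 3.19, 3.23 and 3.35 in cold brown. It rose by 1.22 (SE 0.10, adjusted p = 1.37e-10) in beige and 1.53 (SE 0.08, adjusted p = 1.92e-13) in brown. Dnmt3a, which sets new methylation, had 7.35, 7.03 and 7.21 in warm beige, against 7.27, 7.07, 7.09 and 6.78 in cold beige. It had 6.55, 6.14, 6.49, 6.31 and 6.48 in warm brown, against 5.25, 5.38, 5.47, 5.47 and 5.29 in cold brown, so that the beige groups overlapped and the brown ones did not. It rose in brown by 1.02 (SE 0.10, adjusted p = 1.21e-08) and changed in beige by 0.14 (interval -0.12 to 0.41), a difference of -0.88 (SE 0.16, adjusted p = 0.000138). With quantile normalization the beige change was 0.34 and was called (adjusted p = 0.0131).

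Tet3, which oxidizes methylated cytosine, had 6.88, 6.56 and 6.85 log2 CPM in warm beige, against 6.85, 6.82, 6.81 and 6.75 in cold beige, and 6.00, 5.69, 6.02, 5.60 and 6.01 in warm brown, against 4.89, 5.31, 4.93, 5.09 and 4.99 in cold brown. The beige groups overlapped, and cold brown lay below warm brown, itself below all inguinal libraries. It rose in brown by 0.82 (SE 0.11, adjusted p = 4.71e-07), changed in beige by -0.04 (interval -0.32 to 0.23), and the difference was -0.87 (SE 0.17, adjusted p = 0.000197). Tet2 changed by -0.17 in beige (interval -0.52 to 0.19) and 0.30 in brown (interval 0.01 to 0.60). Dnmt1 and Ezh2 are also high in dividing cells, and of 18 genes of the cell cycle 11 were measured. Of these, 6 rose and 2 fell in beige, where 36% of all rows were called higher and 36.9% lower. In brown 7 rose and 2 fell, where 41.2% of all rows were called higher and 30.1% lower. The part of cell division in the changes of Dnmt1 and Ezh2 was not tested.

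**Figure D3:**
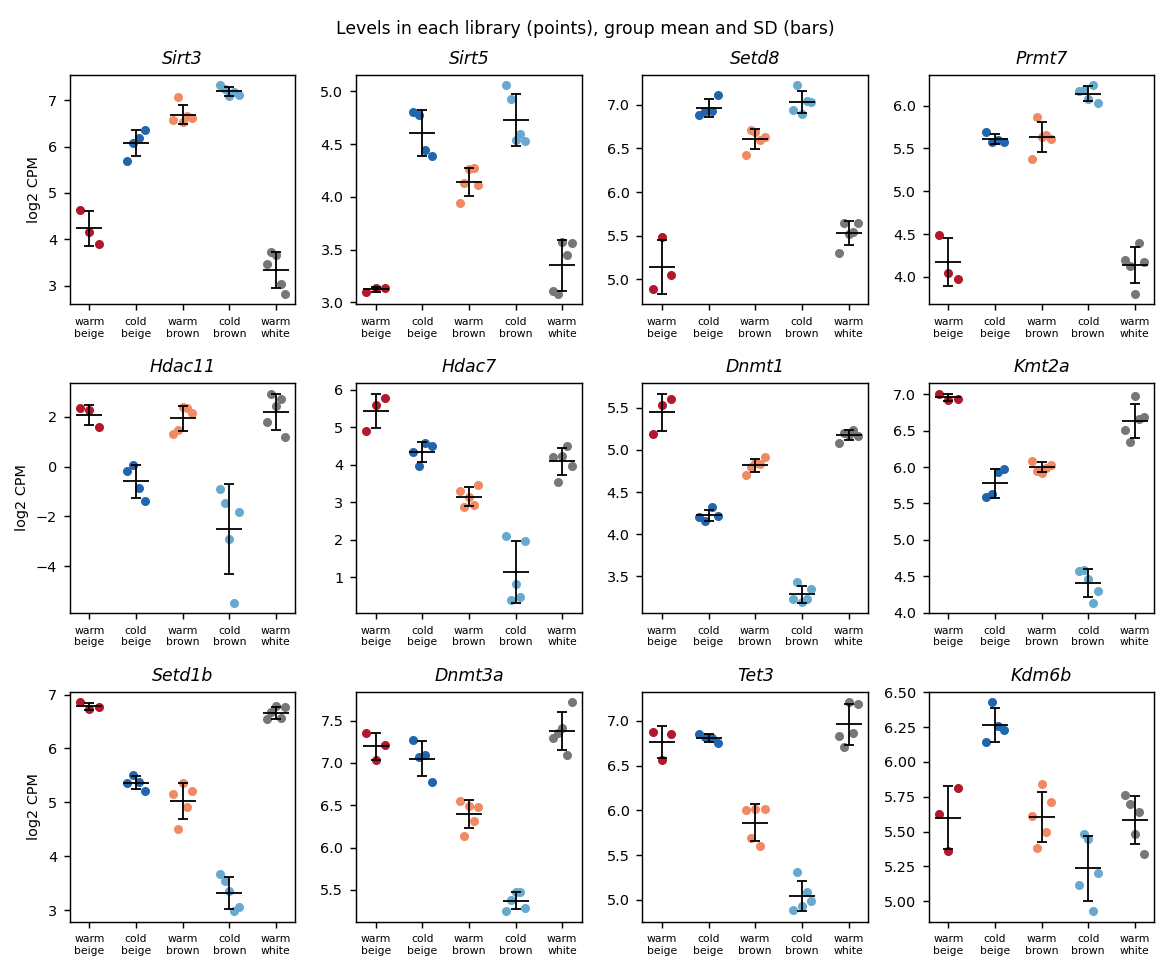
Level of 12 of the genes in each library (log2 CPM, points) with the group mean and SD (bars), the groups running from warm beige and cold beige through warm brown and cold brown to warm white. Sirt3, Sirt5, Setd8 and Prmt7 are higher in cold than in warm libraries of the same depot, Hdac11, Hdac7, Dnmt1, Kmt2a and Setd1b are lower, and Dnmt3a and Tet3 are apart between warm and cold in brown while they overlap in beige.

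Against white adipocytes that had never been cold, warm beige adipocytes differed in few of these genes. Of the 86, 16 were called higher and 9 lower in warm beige than in warm white, where 17% of all rows were called higher and 22.4% lower (39.4% called), and 1 (Hdac7) was called and at least 2-fold different, where the background was 11.5%. More were called in the cold. In cold beige 13 were called higher and 43 lower than in warm white, where 38% of all rows were called higher and 37.2% lower (75.2% called), with 12 at least 2-fold different, where the background was 34.9%. The groups did not overlap for 19 genes with warm beige, where the background was 29%, and for 45 with cold beige, where it was 63.6%. Without the 20 most abundant genes in the totals the cold beige split was 12 and 49, with 44.4% of all called rows higher, against 50.6% in the main fit. For warm beige the split was 19 and 3 with a common total, 21 and 3 without the 20 most abundant genes, 20 and 7 with quantile normalization and 13 and 10 with the replicate number as a block. In the first 2 of these, 52.5% and 61% of all called rows were higher, against 43.1% in the main fit. The medians were -0.04 for warm beige and -0.21 for cold beige. Within batches, warm beige had 2 higher and 1 lower in the smaller and 8 and 7 in the larger, and cold beige 12 and 34, and 16 and 38. Both comparisons use the warm white libraries.

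Of the 56 genes called between cold beige and warm white, warm beige was called different from cold beige alone for 36, from both for 15, from white alone for 1 and from neither for 4. Over all 8731 rows called between cold beige and white, the counts were 4580, 2628, 967 and 556. Sirt3 was called from both: cold beige exceeded white by 2.74 (SE 0.17, adjusted p = 1.55e-12), and warm beige exceeded white by 0.90 (SE 0.19, adjusted p = 0.00058), so warm beige lay between the 2. Sirt5 was higher by 1.25 (SE 0.13, adjusted p = 1.79e-08) in cold beige, and in warm beige the difference was -0.23 (interval -0.54 to 0.08). For Prmt7 the values were 1.47 (SE 0.11, adjusted p = 4.8e-11) in cold beige and 0.03 (interval -0.22 to 0.29) in warm beige, and for Sirt2 1.27 (SE 0.11, adjusted p = 6.38e-10) and 0.00 (interval -0.26 to 0.26).

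Many genes below white in cold beige were nearer to white in warm beige. Suv39h1 differed by -1.44 (SE 0.10, adjusted p = 7.54e-12) in cold beige and -0.31 (SE 0.11, adjusted p = 0.0245) in warm beige, the last call lost without 1 library (warm beige replicate 1 or 2 or warm white replicate 4). Sirt1 differed by -1.03 (SE 0.08, adjusted p = 1e-10) in cold beige and by -0.13 in warm beige (interval -0.31 to 0.06). Brd2 differed by -1.02 (SE 0.06, adjusted p = 1.14e-12) and by -0.09 (interval -0.23 to 0.06), and Setd1b by -1.30 (SE 0.14, adjusted p = 2.62e-08) and by 0.12 (interval -0.21 to 0.45). The H3K4 methyltransferases as a class had none higher and 7 lower in cold beige, and 1 higher (Kmt2a) and 3 lower in warm beige, which quantile normalization turned to 3 and 1.

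The largest excess of warm beige over white was that of Hdac7, at 1.34 (SE 0.33, adjusted p = 0.00238), where all 12 endothelial markers were also called higher in warm beige. Suv420h2 exceeded white in both states, by 0.75 (SE 0.13, adjusted p = 7.73e-05) in warm beige and 0.98 (SE 0.12, adjusted p = 1.11e-07) in cold beige. Kdm7a, an H3K9 and H3K27 demethylase, exceeded white by 0.57 (SE 0.13, adjusted p = 0.00124) in warm beige, while cold beige differed by -0.14 (interval -0.39 to 0.11). Ezh1 was above white in warm beige (0.48, SE 0.10, adjusted p = 0.000839) and below it in cold beige (-0.36, SE 0.09, adjusted p = 0.00181).

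**Figure D4:**
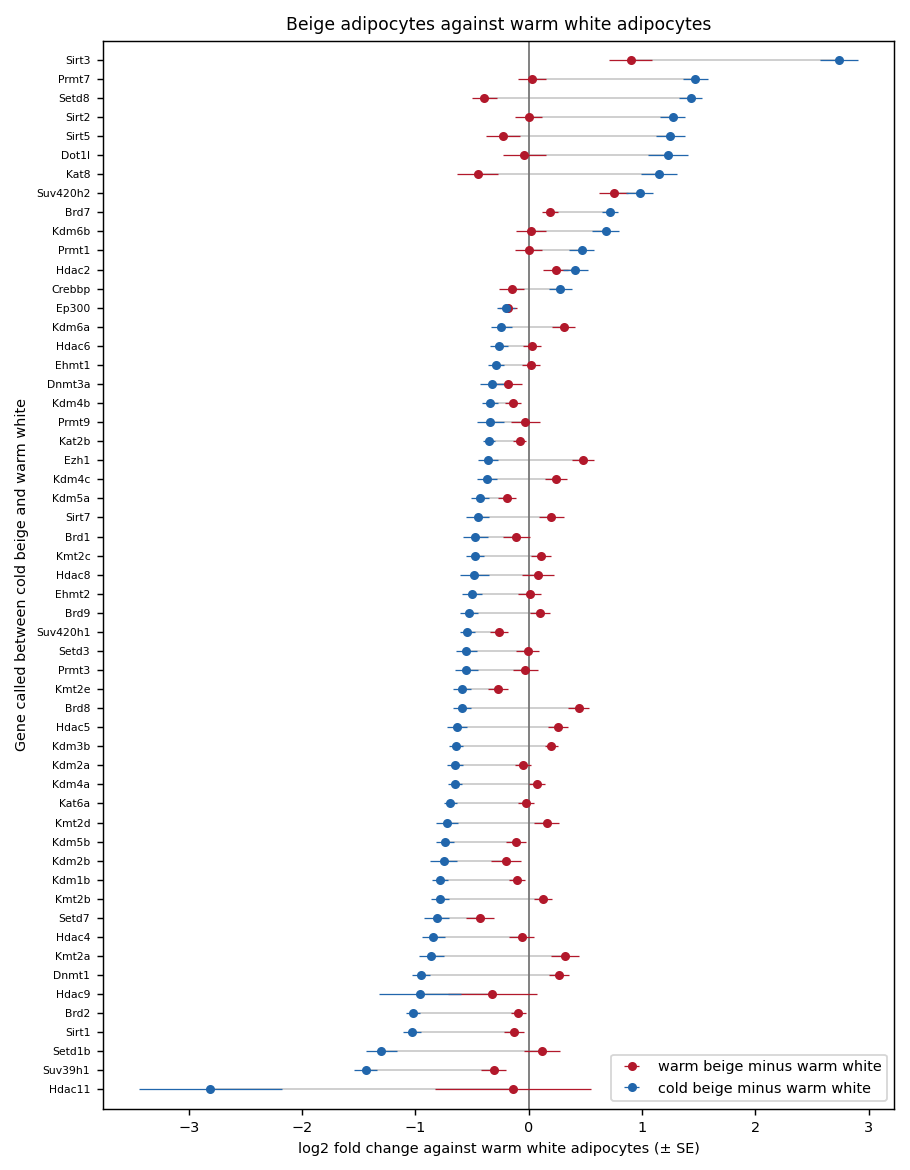
Difference from warm white (log2, with bars of 1 SE) of warm beige and cold beige for 55 of the 56 genes called between cold beige and warm white, ordered by the cold beige value. The cold beige points span -2.81 for Hdac11 to 2.74 for Sirt3, while most warm beige points lie near 0, with Sirt3, Suv420h2 and Ezh1 among those that were also called from white.

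Warm brown adipocytes, which shared the 4 weeks at 30 °C with warm beige, had 17 genes called higher and 46 lower than warm white, where 40.9% of all rows were called higher and 38.1% lower, 79% in all. The median was -0.28, against 0.03 over all rows, and the groups did not overlap for 55 genes, where the background was 67.1%. The split was 14 and 32 within the smaller batch and 16 and 40 within the larger. All 8 H3K4 methyltransferases were lower, the furthest being Setd1b at -1.63 (SE 0.14, adjusted p = 1.89e-10) and Kmt2d at -1.52 (SE 0.09, adjusted p = 1.3e-12). Of the mitochondrial and cytosolic sirtuins, Sirt3 at 3.35 (SE 0.16, adjusted p = 1.14e-14), Sirt2 at 1.79 (SE 0.11, adjusted p = 4.75e-13) and Sirt5 at 0.79 (SE 0.13, adjusted p = 6.51e-06) were on the other side. Mitochondrial Sirt4 was not among them, with a mean of 2.97 log2 CPM in warm brown and 3.01 in warm white. Hdac9 had -1.13, -0.87, -1.35, -0.79 and -1.48 log2 CPM in warm brown, against 1.90, 1.29, 2.82, 1.68 and 1.50 in warm white, with no overlap and a difference of -2.96 (SE 0.34, adjusted p = 4.71e-08). Dnmt3a and Tet3 were lower in warm brown as well, at -0.98 (SE 0.10, adjusted p = 1.4e-08) and -1.10 (SE 0.11, adjusted p = 3.15e-09). These depots also differed in the markers of other cell types: 10 of the 12 fibroblast and preadipocyte markers were called lower and none higher in warm brown. So were 6 of the 7 macrophage and 8 of the 9 skeletal muscle markers, while 9 of the 12 endothelial markers were called higher and none lower. The part of these markers' cells in the results was not tested.

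At the same temperature, more of these genes were higher in beige than in brown adipocytes. In warm beige, 45 genes were called higher and 19 lower than in warm brown, where 35.3% of all rows were called higher and 40.1% lower (75.5% called). The median was 0.28, against -0.05 over all rows, and the groups did not overlap for 63 genes, where the background was 70%. Without the 20 most abundant genes the split was 53 and 10, with 54.6% of all called rows higher, against 46.8% in the main fit. In cold beige, 40 were called higher and 12 lower than in cold brown, where 34.7% of all rows were called higher and 27.2% lower (61.9% called). The median was 0.17, against 0.05, and the groups did not overlap for 48 genes, where the background was 54.2%. The cold split was 34 and 17 with median-of-ratios scaling (median 0.07) and 35 and 13 with quantile normalization. Without the 20 most abundant genes it was 43 and 9. Of all called rows, 45.8, 46 and 62.7% were higher in that order, against 56% in the main fit. Within the smaller and the larger batch the splits were 30 and 9, and 44 and 17, for the warm groups, and 27 and 3, and 34 and 11, for the cold ones. All 12 fibroblast and 9 of the 12 endothelial markers were called higher in beige in both comparisons.

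All 8 H3K4 methyltransferases were higher in warm beige than in warm brown and 7 were higher in cold beige than in cold brown, with none lower. Setd1b stood at 1.75 (SE 0.16, adjusted p = 1.08e-09) in the warm and 2.04 (SE 0.14, adjusted p = 9.93e-11) in the cold, and Kmt2d at 1.68 (SE 0.11, adjusted p = 6.14e-12) and 1.51 (SE 0.10, adjusted p = 4.2e-11). Hdac7 had the largest excess in the cold, at 3.19 (SE 0.30, adjusted p = 9.44e-09), and stood at 2.29 (SE 0.33, adjusted p = 1.46e-06) in the warm. Hdac9 was higher by 2.64 (SE 0.39, adjusted p = 2.75e-06) in the warm and 2.16 (SE 0.36, adjusted p = 2.48e-05) in the cold, and the cold call was lost with quantile normalization (0.22, adjusted p = 0.629). Of the 4 DNA methylation enzymes, 3 were higher in beige in both states. Dnmt3a was higher by 0.80 (SE 0.12, adjusted p = 3.28e-06) and 1.68 (SE 0.11, adjusted p = 3.98e-11), and Tet3 by 0.90 (SE 0.12, adjusted p = 8.91e-07) and 1.77 (SE 0.11, adjusted p = 2.38e-11).

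Several genes that fell on warming were lower in beige than in brown. Sirt3 differed by -2.45 (SE 0.19, adjusted p = 7.88e-11) in the warm and -1.11 (SE 0.17, adjusted p = 8.66e-06) in the cold, and Sirt2 by -1.79 (SE 0.12, adjusted p = 1.35e-11) and -1.07 (SE 0.11, adjusted p = 5.09e-08). Setd8 was lower in warm beige than in warm brown (-1.47, SE 0.11, adjusted p = 5.63e-11), while in the cold its difference was -0.07 (interval -0.28 to 0.14). Sirt5 likewise stood at -1.02 (SE 0.15, adjusted p = 1.77e-06) in the warm and -0.13 in the cold (interval -0.41 to 0.15). The other examples were lower in both states: Kat8 differed by -1.31 (SE 0.18, adjusted p = 6.41e-07) and -0.74 (SE 0.16, adjusted p = 0.00042), and Prmt7 by -1.46 (SE 0.12, adjusted p = 3.61e-10) and -0.53 (SE 0.11, adjusted p = 0.000298). Kdm6b differed little in the warm (-0.01, interval -0.28 to 0.27) and higher in beige in the cold (1.03, SE 0.12, adjusted p = 2.11e-07).

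**Figure D5:**
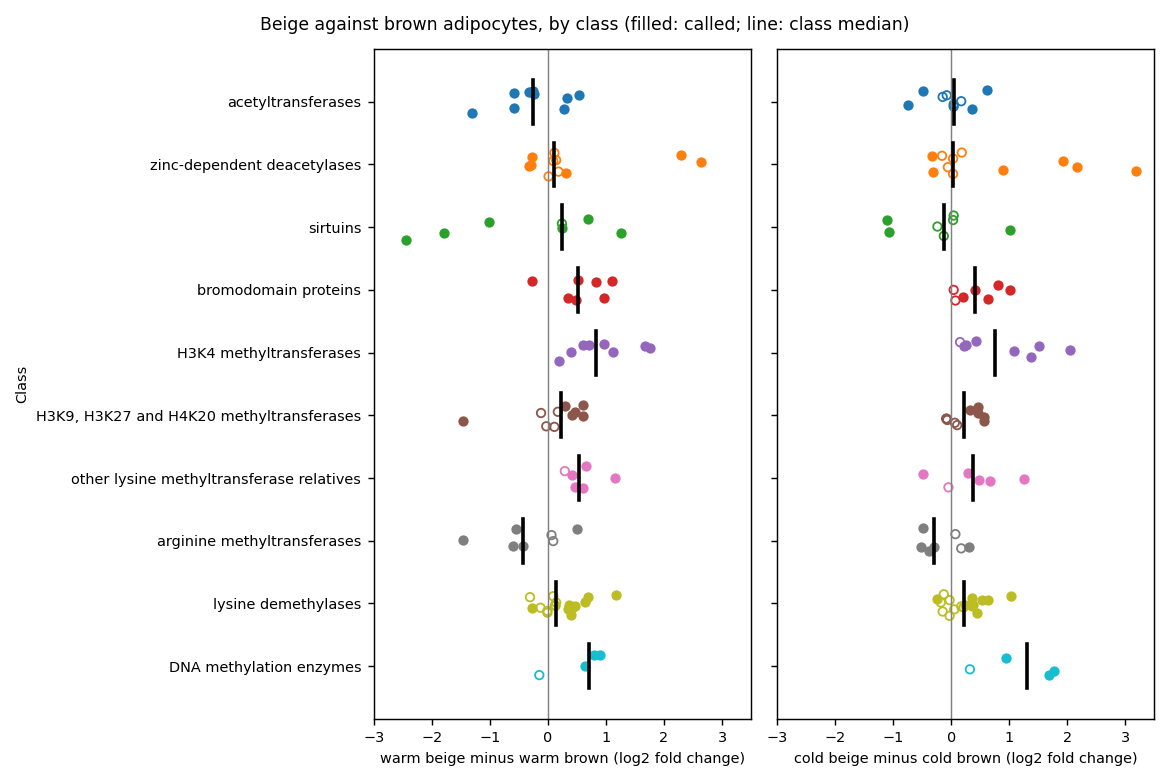
Log2 difference of warm beige from warm brown (left) and of cold beige from cold brown (right) for each of the 86 genes, by class, with filled points for genes called by limma and a line at the class median. H3K4 methyltransferases lie above 0 in both panels, and Sirt3 and Sirt2 lie below 0 in both.

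The enzymes act on substrates that metabolism supplies, so a list of 34 genes for acetyl-CoA, S-adenosylmethionine, NAD and 2-oxoglutarate supply (35 rows) was set beside them. On warming most of these rows fell in beige, with 6 rows higher and 23 lower (median -0.78), and was near even in brown, with 13 higher and 14 lower (median -0.12). Acly, which makes cytosolic acetyl-CoA from citrate, averaged 6.92 ± 0.58 log2 CPM in warm beige and 11.32 ± 0.28 in cold beige (SD, n = 3 and 4), a difference of -4.40 (SE 0.30, adjusted p = 1.17e-11), and in brown the difference was -2.34 (SE 0.25, adjusted p = 2.03e-08). Idh3a, a subunit of the mitochondrial enzyme that makes 2-oxoglutarate, fell in beige (-3.43, SE 0.12, adjusted p = 1.63e-16), and the difference from brown was -2.68 (SE 0.16, adjusted p = 1.2e-11). Gnmt, which uses up S-adenosylmethionine, fell in both, at -4.54 (SE 0.88, adjusted p = 8.59e-05) in beige and -5.08 (SE 0.73, adjusted p = 1.88e-06) in brown. Mtr, methionine synthase, rose in brown by 1.68 (SE 0.07, adjusted p = 1.04e-14).

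Other chromatin enzymes and partners outside the symbol rule (66 of 71 measured) split much as the 86 genes did, with 31 higher and 17 lower in warm beige than in cold beige, and 38 higher and 15 lower in warm brown than in cold brown. The largest change was that of Gadd45b, a stress-induced protein linked to DNA demethylation, which rose by 3.79 (SE 0.35, adjusted p = 2.26e-09) in beige and 4.58 (SE 0.29, adjusted p = 5.12e-12) in brown. Uhrf1, which brings Dnmt1 to newly replicated DNA, rose in brown by 2.27 (SE 0.24, adjusted p = 1.8e-08) and differed between beige and brown warming by -3.13 (SE 0.37, adjusted p = 4.99e-07). Against white, this list had 4 higher and 10 lower in warm beige, and 18 higher and 38 lower in cold beige.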

How the data were processed

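Ribosome-bound mRNA was sequenced after Ribo-Zero depletion and Nextera XT library construction, per the labels' protocols. HISAT2, Picard, featureCounts and edgeR with mm10 are named in the submitters' processing notes; versions, annotation and strand use are not given in the sources used here, and the kit marks no strand, so overlapping antisense genes cannot be told apart. The deposited values are log2 CPM. Floor values differ between 10 and 12 of the libraries, read here as 2 batches; the batch coefficients were at most 0.005, so the values appear to have been batch-adjusted before deposit. Depth is unknown, so no counting interval was made. Antilog sums were 0.859 to 1.10 times 1000000.

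Here, limma 3.58.1 (R 4.3.3, trend) fitted 5 group means to 11603 rows (11544 symbols; 22 libraries, 17 residual degrees of freedom) for 8 contrasts, with Benjamini-Hochberg adjustment over all rows and a threshold of 0.05. Intervals are 95%. The fit was tested on simulated data. Genes named were a fixed panel of members and the 10 largest called increases and decreases per comparison, also described in the other comparisons; Kat6a, Kdm3b and genes that appear only in lists of calls were chosen after their values were seen. Alternatives were pseudocounts, filters, scalings, batch and replicate terms, and libraries left out. The members and lists were chosen with earlier results of these data known. The counts include 1 member that is not reported by name here. The 36 ChIP libraries are not analysed here.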

Additional observations from a re-analysis of the deposited data

Results flagged for a closer look

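In 5 of 168 sets of a gene and a group of 4 or 5 libraries, the highest or lowest library lay far from the rest by Dixon's criterion, which chance gives in about 1 set of 20. They were Sirt3 at 7.06 log2 CPM in warm brown replicate 2, Sirt2 at 4.73 in warm white replicate 1, Tet2 at 4.38 in warm brown replicate 3, Hdac5 at 7.30 in cold brown replicate 1 and Kdm1a at 4.91 in cold beige replicate 1.

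For 25 of the 42 genes examined in detail, the log2 effect of warming differed between beige and brown adipocytes in limma's test of the difference (beige minus brown). Genes were named in part for their size in this same test, so that share is raised by the choice. Of all 86 members 39 (45.3%) were called, where 47.2% of all rows were. The negative differences were -1.40 for Setd8, -1.34 for Sirt3, -1.04 for Kdm6b, -0.96 for Dot1l, -0.93 for Prmt7, -0.89 for Sirt5, -0.88 for Dnmt3a, -0.87 for Tet3, -0.76 for Prmt1, -0.72 for Sirt2, -0.71 for Hdac1, -0.68 for Suv420h2, -0.41 for Kmt2a, -0.41 for Ep300, -0.31 for Dnmt1 and -0.30 for Hdac3. The call for Dnmt1 (adjusted p = 0.0476) was kept in 13 of 38 other settings, and was -0.18 (adjusted p = 0.214) without warm beige replicate 1. The positive ones were 0.89 for Setd6, 0.80 for Kdm2a, 0.79 for Brd2, 0.63 for Hdac5, 0.60 for Kdm3a, 0.55 for Setd7, 0.51 for Ezh1, 0.47 for Brd8 and 0.30 for Kat2b. The thermogenic markers also changed more in beige, with all 6 differences called negative, and their part in these was not tested.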

How the results depend on the processing

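For 354 values of single genes under 38 other settings, 12960 of 13444 kept their call, or stayed uncalled with either sign (without the 20 most abundant genes, Tet3 on beige warming was 0.18 and Prmt5 0.11, both below 0 otherwise). A further 358 lost the call, 121 gained one in the same direction, and 5 values called in either setting changed sign. These 5 were Hdac9 on brown warming with quantile normalization (-0.9, adjusted p = 0.0263), Hdac1 on brown warming with quantile normalization (0, adjusted p = 0.981), Dnmt1 for the difference between beige and brown warming with quantile normalization (0.05, adjusted p = 0.764), Setd5 in warm beige against white within the smaller batch (0.07, adjusted p = 0.775) and Hdac11 in cold beige against cold brown with quantile normalization (-1.09, adjusted p = 0.205). Fewer libraries remain within the smaller batch, where members called numbered 40 for beige warming, 38 for brown warming, 6 for the difference, 3 for warm beige against white, 30 for cold beige against cold brown and 39 for warm beige against warm brown. The least stable count was that of warm beige against white: 25 in all, 9 with these groups alone, 15 within the larger batch, and 13 without warm beige replicate 2.

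Leaving out each library in turn gave 58 to 66 members for beige warming, 66 to 70 for brown warming, 33 to 42 for the difference, 13 to 25 for warm beige against white, 53 to 61 for cold beige against white, 61 to 64 for warm brown against white, 50 to 55 for cold beige against cold brown and 59 to 64 for warm beige against warm brown. Without cold brown replicates 1 and 5, whose endothelial markers were high (a setting added after seeing the data), the counts were 64, 66, 37, 23, 56, 62, 50 and 62 in the same order. Beige libraries carry other numbers in the deposited column names than as replicates. By replicate number, same-numbered libraries correlated at -0.17 to 0.32, and by column number at -0.26 to 0.35. Between the depots at the same temperature, every pair by column number was positive. These ran from 0.07 to 0.35 for cold beige and cold brown (3 of 4 over 0.1), and from 0.07 to 0.2 for warm beige and warm brown (2 of 3). In no comparison was every pair over 0.1, and neither number was taken to pair the libraries. Whether depots at the same temperature share animals remains unknown. With the replicate number as a block the counts were 65, 68, 38, 23, 56, 61, 52 and 60, and with the column number 63, 68, 39, 23, 56, 62, 53 and 61. Depth is unknown, and Hdac11 is the member most limited by low values.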
